A study of Rattus norvegicus with 12 samples.

Results

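The change in liver mRNA between 4 h and 12 h after partial hepatectomy (PH) was described in rats. RNA sequencing of whole liver had been deposited as 1 RPKM column for each of 3 surgical groups at 0, 4, 12 and 24 h after PH, and the 4 h and 12 h columns of each group were paired. RPKM is the number of reads divided by the length of the transcript and by the total reads of the library. Genes were kept when their 12 columns averaged 1 RPKM or more, and of these 8459 genes 112 (1.32%) moved at least 2-fold in the same direction in all 3 pairs, when 1 RPKM was added to each value. These were 70 genes that fell and 42 that rose, and both words are used below only for genes that met this rule or, where stated, a limma test. The counts depended on the constant, as 96 fell and 104 rose with 0.1 RPKM added, and 53 fell and 18 rose with 3 RPKM.

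All rats were male Sprague Dawley, carried a duodenal catheter with a saline infusion, and underwent PH 24 h after a first operation on the bile duct. The column titles name the groups Cont, BA and BF. Cont rats had a sham biliary fistula. For the other two groups the labels disagree: the BA titles belong to samples described as biliary fistula without bile, and the BF titles to samples described as biliary fistula with bile acid infusion, whereas the study's own names use BF for the fistula alone and BA for the infusion of sodium taurocholate. The groups are therefore called by their titles, and the rule over 3 pairs gives the same genes under either reading. CYP7A1, the rate-limiting enzyme of bile acid synthesis, which bile acids repress, was at 60.00, 54.9 and 387 RPKM at 0 h in Cont, BA and BF, so that BF stood apart and BA lay near Cont. PCNA, the sliding clamp of DNA polymerase, stood at 24 h at 381 RPKM in Cont, 353 in BA and 75.2 in BF, with BF again apart. No sample was moved to another group on these values. A column rests on 4 rats and holds no spread between them, since the authors averaged a run made from a single rat with a run made from the combined RNA of the other 3. The error given below is the spread of the 12 h against 4 h change among the 3 groups, which were treated differently. The 0 h samples were taken at PH, so every later column follows removal of most of the liver, and no group without PH was compared. The clock time and feeding state of the rats are not given, and cannot be told apart from the time after PH.

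Hepatocytes of the resting adult liver leave quiescence after PH. A priming phase with immediate early transcription factors, cytokine signals and acute metabolic adjustment is followed by a long passage through G1, and DNA synthesis in the rat begins only after that. The hours between 4 h and 12 h lie within G1, when the remnant also has to carry the synthesis and clearance work of the whole organ.

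The summed RPKM of the 6 columns lay between 727435 and 982826, and the number of reads behind them is not known. The highest sum was that of BA at 4 h, where ALB, the gene of serum albumin, was listed at 303637 RPKM and took 30.9% of the sum, against 5.60% to 11.2% in the other 5 columns. Without ALB the sums of the 6 columns lay between 650312 and 703408, with BA at 4 h at 679188. The median gene of the BA pair stood 0.17 higher at 12 h on the log2 scale, against -0.0033 in Cont and 0.0073 in BF, and 0.08, 0.07 and 0.04 in BA, Cont and BF after each column was rescaled to the same median. The BF column at 12 h held mRNA of pancreatic acinar cells: 13 of the 14 markers found were highest there among the 12 columns, with a summed level of 165 RPKM against 5.40 to 23.6 in the others. Hepatocyte markers, with 5 of 6 found, summed to between 120113 and 345997 RPKM at 4 h. At 12 h the sum lay between 79789 and 85604 RPKM, lower in every pair, but ALB made up most of it at both times. In BF the sum went from 120113 to 82936 RPKM, and ALB alone from 78927 to 41756 RPKM. Of the 5 markers 3 were lower at 12 h in all 3 pairs. The part of these markers in the falls described below was not tested. In whole liver, fewer cells of a type and less RNA per cell cannot be told apart.

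The 70 genes that fell were 0.828% of the genes tested and the 42 that rose were 0.497%. Within single pairs the 2-fold threshold was passed downward by 438 genes in Cont, 443 in BA and 219 in BF, and upward by 231, 537 and 220. The genes shared by all 3 pairs were 16.0%, 15.8% and 32.0% of those falling in Cont, BA and BF, and 18.2%, 7.82% and 19.1% of those rising. Over all genes tested, the log2 ratios of the pairs, which share no column, had a Pearson r of 0.565 between Cont and BA, 0.458 between Cont and BF and 0.599 between BA and BF, across genes, which are not independent replicates. A fit with limma on the same columns, with the group as a block and Benjamini-Hochberg adjustment over all genes tested, called 94 genes lower (1.11%) and 79 higher (0.934%) at an adjusted p under 0.05. It called 57 of the 70 genes that fell and 36 of the 42 that rose, in the direction that the rule fixed. At an unadjusted p under 0.05 the fit had 1128 genes lower and 1391 higher. Its calls depended on which pair was left out, as it called 0 genes higher and 1 lower without the BA pair or without the BF pair, and 187 higher and 180 lower without the Cont pair. Required in 2 pairs only, the 2-fold change was met by 130 genes downward and 110 upward without Cont, 100 and 58 without BA and 188 and 99 without BF.

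With 1 RPKM added, the members that fell had larger changes than those that rose. The median log2 ratio of the 70 genes was -1.87 in Cont, -2.22 in BA and -1.57 in BF, and that of the 42 genes was 1.47, 1.63 and 1.33. A 4-fold change in every pair was reached by 12 genes that fell and by 0 that rose. The largest change of a gene was found in the BA pair for 32 of the 70 and 22 of the 42, and the BA pair also gave the largest change for 3986 of all 8459 genes. Among the genes that fell the mean over the 12 columns ranged from 1.22 to 1897 RPKM with a median of 35.5, and among those that rose from 1.61 to 1947 RPKM with a median of 12.9. A mean under 5 RPKM was found for 8 genes of each kind. The median SD between the pairs was 0.56 on the log2 scale among the genes that fell and 0.32 among those that rose, against 0.26 over all genes tested.

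**Figure D1:**
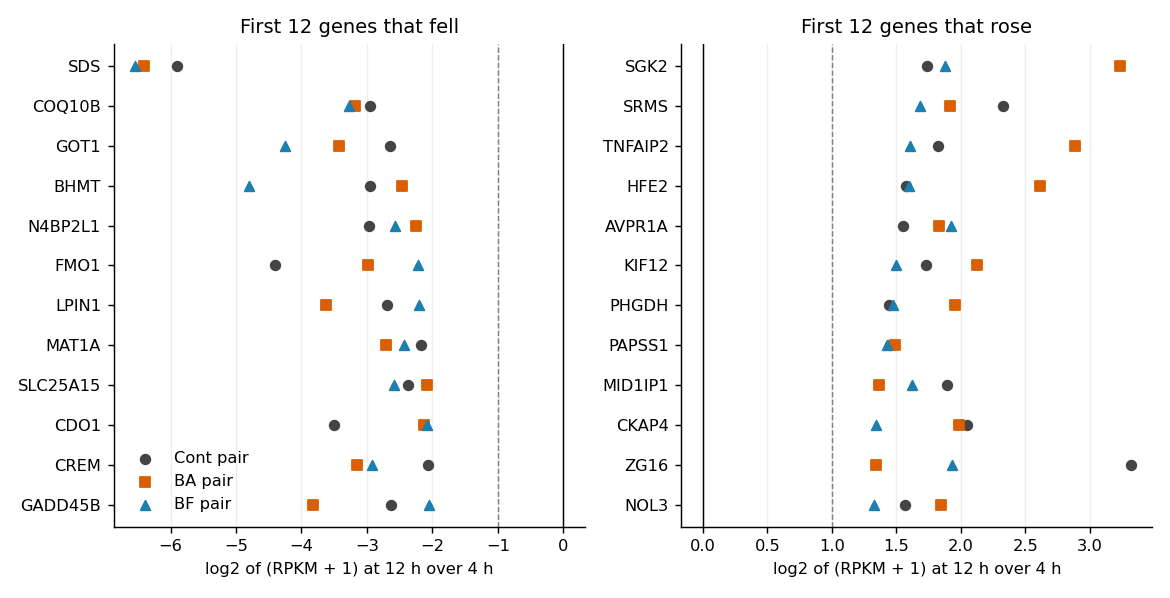
Log2 ratio of RPKM + 1 at 12 h over 4 h (x axis) for the 12 genes that fell and the 12 that rose with the largest changes in their weakest pair, with 1 point per pair. Black circles are Cont, orange squares BA and blue triangles BF, the dashed line marks 2-fold, and SDS lies apart from all other genes at -5.91 to -6.54. ZG16 was listed at 0 in all 4 h columns, so its points depend on the 1 RPKM added.

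Enzymes of amino acid breakdown were among the most abundant transcripts that fell. SDS, serine dehydratase, which turns serine into pyruvate for glucose synthesis, went from 455 to 6.60 RPKM in Cont, 261 to 2.10 in BA and 248.5 to 1.68 in BF. Its mean log2 ratio was -6.28 ± 0.33 (SD, n = 3 pairs), and its lowest 4 h value, in BF, stood far above its highest 12 h value, in Cont. Before PH it had stood at 184 RPKM in Cont, 8.85 in BA and 57.9 in BF, so all groups were higher at 4 h than at 0 h and lower at 12 h than at 0 h. GOT1, the cytosolic aspartate aminotransferase, fell from 966 to 153 RPKM in Cont, 769 to 70.8 in BA and 1139 to 58.7 in BF. At 0 h GOT1 had been at 95.98, 78.9 and 104 RPKM in Cont, BA and BF, and the 4 h columns were thus a peak. TAT, which opens the breakdown of tyrosine and is a classical target of glucocorticoids and glucagon, fell from 3354 to 1307 RPKM in Cont, 2291 to 723 in BA and 2003 to 381 in BF.

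Of the enzymes that handle methionine and cysteine, MAT1A, BHMT and CDO1 fell, and no list of that pathway was counted. MAT1A makes S-adenosylmethionine in the adult liver, and went from 2493 to 553 RPKM in Cont, 1612 to 247 in BA and 2031 to 374 in BF. BHMT, which remethylates homocysteine with betaine, went from 1728 to 223 RPKM in Cont, 435 to 77.9 in BA and 1471 to 52.03 in BF. It fell most in BF and least in BA, and its SD over the pairs was 1.23 around a mean log2 ratio of -3.40. CDO1, cysteine dioxygenase, opens the oxidation of cysteine to taurine and sulfate, and fell from 1717 to 151 RPKM in Cont, 1052 to 240.4 in BA and 1248 to 294 in BF. SLC25A15, the carrier that brings ornithine into mitochondria for the urea cycle, fell from 747 to 143 RPKM in Cont, 356 to 83.2 in BA and 622 to 102.5 in BF. GLS2, the liver type glutaminase, fell from 158 to 72.3 RPKM in Cont, 80.2 to 38.4 in BA and 131 to 38.01 in BF, close to the threshold in the Cont and BA pairs.

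Of 35 genes tested from a list of the urea cycle and amino acid breakdown, 7 fell (20%) and 0 rose, against 0.828% and 0.497% of all genes tested. BCAT2, a branched chain aminotransferase that rose, was not on this list. Over all genes tested limma called 1.11% lower and 0.934% higher. The limma fit called 10 lower and 0 higher, 24 were lower at 12 h in all 3 pairs, and the median of their mean log2 ratio was -0.87, against 0.06 over all genes tested. Over all genes tested 23.9% were lower in all 3 pairs. The members called by limma outside the 2-fold rule were KMO, a kynurenine pathway enzyme, ASL, argininosuccinate lyase of the urea cycle, and OAT, ornithine aminotransferase. ASL went from 455 to 227 RPKM in Cont, 464 to 141 in BA and 579 to 183 in BF, and missed the rule with a log2 ratio of -0.998 in the Cont pair. CPS1, the entry step of the urea cycle, was at 1475, 1146 and 2005 RPKM at 4 h and 1355, 923 and 719 RPKM at 12 h in Cont, BA and BF, with an adjusted p of 0.222 in limma. HAL, which breaks down histidine, was higher at 12 h in Cont and BA and lower in BF. Amino acid carriers of the plasma membrane, picked out after their values were seen, were also among the genes that fell. SLC38A2, a sodium-coupled carrier of neutral amino acids, went from 195 to 60.4 RPKM in Cont, 235 to 42.5 in BA and 154 to 32.3 in BF. SLC7A2, a carrier of arginine and lysine, went from 287 to 123 RPKM in Cont, 199.8 to 95.2 in BA and 232 to 67.2 in BF. SLC16A10, a carrier of aromatic amino acids, fell by nearly the same amount in all pairs, with a mean log2 ratio of -1.53 ± 0.03 (SD, n = 3 pairs).

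Several single genes known from stress and growth arrest fell. GADD45B, a stress sensor induced by many cytokines, went from 44.7 to 6.35 RPKM in Cont, 80.3 to 4.72 in BA and 17.9 to 3.54 in BF. CDKN1A encodes p21, an inhibitor of cyclin-dependent kinases, and went from 67.2 to 27.8 RPKM in Cont, 70.9 to 14.2 in BA and 23.98 to 7.93 in BF. BTG2, which restrains proliferation and is induced by p53, fell from 63.8 to 18.7 RPKM in Cont, 217 to 16.2 in BA and 48.8 to 18.4 in BF. TP53INP1, another p53 target, fell from 67.9 to 25.6 RPKM in Cont, 106 to 18.1 in BA and 33.8 to 13.9 in BF. The 4 h value of BTG2 in BA was far above those of Cont and BF, while its 12 h values lay between 16.2 and 18.7 RPKM in all groups. Of 18 p53 targets tested 4 fell (22.2%), the ones named here, and 0 rose, against 0.828% and 0.497% of all genes tested. In all 3 pairs 9 (50%) were lower and 5 (27.8%) higher, against 23.9% and 31.1% of all genes tested. Over all genes tested limma called 1.11% lower and 0.934% higher. The list did not move in 1 direction: limma called 2 lower, GADD45B and CDKN1A, and 2 higher, the death receptor FAS and PHLDA3, and the median of the mean log2 ratio was -0.19. FAS was at 1.13, 1.15 and 1.36 RPKM at 4 h in Cont, BA and BF and at 3.12, 3.33 and 5.42 RPKM at 12 h.

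Among 20 immediate early genes tested, 2 fell, BTG2 and the zinc finger factor KLF6, and 0 rose. The median of their mean log2 ratio was -0.85, and 16 of the 20 (80%) were lower in all 3 pairs, against 23.9% of all genes tested. KLF6 went from 21.02 to 8.16 RPKM in Cont, 25.3 to 4.39 in BA and 15.5 to 6.05 in BF. Besides KLF6, limma called NR4A1, an orphan nuclear receptor, which was at 2.15, 4.00 and 4.18 RPKM at 4 h and 0.67, 0.20 and 0.54 RPKM at 12 h in Cont, BA and BF. MYC stood at 27.4, 19.03 and 17.2 RPKM at 4 h and 13.2, 4.85 and 9.68 RPKM at 12 h, with the groups in that order, short of 2-fold in the BF pair. FOS was at 3.60, 4.70 and 1.18 RPKM and 0.87, 0.72 and 0.68 RPKM, a low level at both times. JUN was lower at 12 h in Cont and BA, at 12.7 and 10.5 RPKM against 27.5 and 34.7 at 4 h, and was at 14.8 and 14.9 RPKM at 4 h and 12 h in BF. The adjusted p was 0.0583 for MYC, 0.0749 for FOS and 0.138 for JUN in limma.

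Cyclic AMP mediates the action of glucagon on the liver, and acts on genes through the cAMP response element, a palindrome with the letters TGACGTCA. CREM encodes activators and repressors that bind this element, and went from 275 to 64.95 RPKM in Cont, 322 to 35.4 in BA and 239 to 30.8 in BF. PPARGC1A, a coactivator of glucose synthesis and of mitochondrial genes, fell from 4.35 to 1.43 RPKM in Cont, 5.31 to 0.84 in BA and 10.4 to 0.75 in BF, most in BF. The element was searched in RefSeq promoters of the rat assembly GRCr8, from 250 bases before to 50 bases after the start of each gene. It was present in 4 of the 50 promoters found for the 70 genes that fell (8%), in 0 of the 34 found for the genes that rose, and in 224 of 6540 promoters of the genes tested (3.425%). The 4 genes were BTG2, FAM134B, PPARGC1A and SLC25A25. The promoters of BTG2 (chr13:48087641-48087940, minus strand) and PPARGC1A (chr14:63634058-63634357, plus strand) are shown 5′ to 3′ in the direction of transcription, with the element in capitals, as the 2 of the 4 that the rule for naming genes includes. The element begins 201 bases before the start of BTG2 and 181 bases before that of PPARGC1A. A match describes the sequence and is no evidence of binding.
BTG2: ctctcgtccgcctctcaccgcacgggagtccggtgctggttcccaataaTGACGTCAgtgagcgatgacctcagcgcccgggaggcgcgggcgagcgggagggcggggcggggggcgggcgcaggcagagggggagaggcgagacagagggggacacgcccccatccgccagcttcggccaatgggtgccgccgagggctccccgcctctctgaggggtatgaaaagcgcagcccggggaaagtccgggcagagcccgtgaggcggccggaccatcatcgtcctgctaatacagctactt
PPARGC1A: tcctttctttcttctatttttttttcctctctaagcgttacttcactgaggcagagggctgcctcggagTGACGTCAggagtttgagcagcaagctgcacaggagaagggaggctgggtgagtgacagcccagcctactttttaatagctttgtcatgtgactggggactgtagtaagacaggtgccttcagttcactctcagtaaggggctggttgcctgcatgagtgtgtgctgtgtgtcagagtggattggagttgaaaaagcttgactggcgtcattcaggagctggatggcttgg
SLC25A25, a mitochondrial carrier of ATP and phosphate, carries the same letters and went from 138 to 60.5 RPKM in Cont, 232 to 70.1 in BA and 151 to 69.1 in BF. FAM134B, a receptor for the turnover of endoplasmic reticulum, went from 281 to 77.02 RPKM in Cont, 358 to 40.2 in BA and 162 to 35.7 in BF. Both were picked out by this search, after their values were seen. The letters TGATGNAA of the amino acid response element, which do not overlap TGACGTCA, were present on either strand in 2 promoters of genes that fell (4%), GOT1 and TAT, in 3 of genes that rose (8.82%), AQP8, GPAM and TOMM40B, and in 136 of the 6540 (2.08%).

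**Figure D2:**
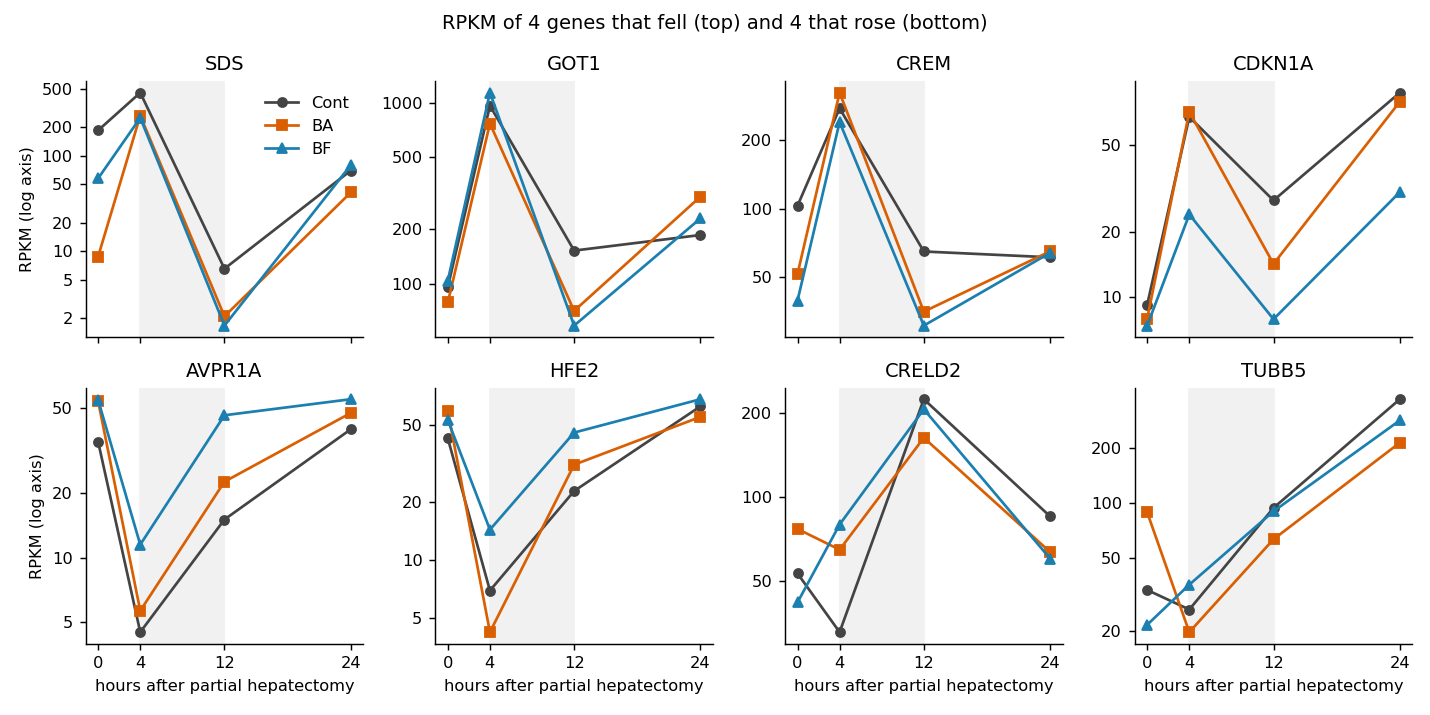
RPKM on a log axis against hours after PH for SDS, GOT1, CREM and CDKN1A, which fell between 4 h and 12 h (grey band), and AVPR1A, HFE2, CRELD2 and TUBB5, which rose. Each point is 1 column, the authors' mean of 2 runs, with Cont in black, BA in orange and BF in blue. The 4 genes in the top row are highest at 4 h among the columns up to 12 h in every group, and AVPR1A and HFE2 are lowest at 4 h in every group.

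Secreted regulators were found on the falling side. IGFBP1, which binds insulin-like growth factors in blood and is induced in fasting and after PH, went from 637 to 65.6 RPKM in Cont, 1182 to 64.05 in BA and 406 to 119.95 in BF. At 0 h it had been at 7.62, 63.8 and 155 RPKM in Cont, BA and BF, so the groups were far apart before PH. It was the only member of 10 tested genes of the IGF axis to fall, against 0.828% of all genes tested. Of the 10 genes 8 (80%) were lower at 12 h in all 3 pairs, against 23.9% of all genes tested, and 1 was higher. The list median was -0.37, with -0.21 in Cont, -0.37 in BA and -0.53 in BF. TGFB3, a ligand of the TGF-beta family, went from 5.04 to 1.47 RPKM in Cont, 6.38 to 0.98 in BA and 5.94 to 0.97 in BF, and was the only 1 of 15 tested genes of that family and of the activins and BMPs to fall. IL1RN, the natural antagonist of the interleukin 1 receptor, fell from 151 to 72.4 RPKM in Cont, 416 to 45.9 in BA and 109 to 42.7 in BF. SERPINA6, corticosteroid-binding globulin, fell from 329 to 67.3 RPKM in Cont, 175 to 28.4 in BA and 172 to 58.2 in BF and had been at 607, 312 and 322 RPKM at 0 h, so its decline ran through both early columns. AGT, angiotensinogen, CTGF, a matricellular protein known as a target of YAP, and TIMP3, an inhibitor of matrix proteases, were picked out after their values were seen. AGT went from 3628 to 1699.5 RPKM in Cont, 6220.5 to 2649.7 in BA and 3039 to 1195 in BF, and had the highest mean over the 12 columns among the genes that fell. CTGF went from 22.9 to 2.65 RPKM in Cont, 18.4 to 3.08 in BA and 7.62 to 3.03 in BF and TIMP3 from 18.7 to 3.30 RPKM in Cont, 23.7 to 1.87 in BA and 12.3 to 2.97 in BF.

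Lipid and oxidative enzymes fell in part. LPIN1, a phosphatidate phosphatase and coactivator induced by fasting, went from 266 to 40.4 RPKM in Cont, 168 to 12.7 in BA and 55.1 to 11.2 in BF. FADS2, which makes polyunsaturated fatty acids, went from 157 to 28.9 RPKM in Cont, 68.2 to 20.3 in BA and 122 to 34.7 in BF, and stood at 469, 287 and 224 RPKM at 0 h in Cont, BA and BF. EHHADH, an enzyme of peroxisomal fatty acid oxidation, fell from 60.2 to 17.5 RPKM in Cont, 29.6 to 3.79 in BA and 46.5 to 22.7 in BF, at the threshold in the BF pair. STARD4, a carrier of cholesterol within the cell, fell from 30.8 to 11.5 RPKM in Cont, 57.5 to 9.01 in BA and 24.3 to 10.1 in BF. COQ10B, a coenzyme Q binding protein of mitochondria, came next to SDS in the size of its smallest change over the pairs, from 527 to 67.4 RPKM in Cont, 326 to 35.2 in BA and 292 to 29.4 in BF, with a mean log2 ratio of -3.13 ± 0.17 (SD, n = 3 pairs). N4BP2L1 went from 23.2 to 2.08 RPKM in Cont, 16.9 to 2.74 in BA and 10.8 to 0.98 in BF. Of 19 genes of fatty acid synthesis 2 fell (LPIN1 and FADS2) and 1 rose (GPAM), while limma called 4 lower, adding ACACB and ACSS2. Of 31 genes of fatty acid oxidation and PPARA targets 2 fell (PPARGC1A and EHHADH) and 0 rose. Their list median was -1.26 in Cont, 0.49 in BA and -0.16 in BF, so that no common direction was seen.

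Genes of detoxification and of bile acid uptake were among those that fell. FMO1, a flavin monooxygenase of drug metabolism, went from 92.8 to 3.42 RPKM in Cont, 23.5 to 2.10 in BA and 33.9 to 6.49 in BF, with 126, 57.3 and 81.1 RPKM at 0 h. SLC10A1, the sodium-taurocholate carrier that takes bile acids up from portal blood, fell from 326 to 56.03 RPKM in Cont, 288 to 61.9 in BA and 216 to 87.6 in BF and had been at 616, 446 and 536 RPKM at 0 h in Cont, BA and BF. The 12 h values were the lowest of the 4 times in every group. It was the only 1 of 24 tested genes of bile acid synthesis and transport to fall, and limma also called CYP27A1, a sterol hydroxylase of bile acid synthesis. CYP7A1 was at 4.59, 1.81 and 13.8 RPKM at 4 h and 8.53, 3.17 and 136 RPKM at 12 h in Cont, BA and BF. It passed 2-fold in the BF pair alone, and its adjusted p was 0.132 in limma. POR, which feeds electrons to all microsomal cytochromes P450, was picked out after its values were seen and went from 399 to 61.6 RPKM in Cont, 159 to 27.8 in BA and 176 to 51.8 in BF. Of 28 cytochromes P450 of families 1 to 3 tested 0 fell and 0 rose, and limma called 0. The median of their mean log2 ratio was -0.49, with 16 (57.1%) lower in all 3 pairs, against 23.9% of all genes tested.

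Most genes of ribosome biogenesis were lower at 12 h, nearly all by less than 2-fold in some pair. WDR43, a factor for the processing of the small ribosomal subunit, was the only 1 of 35 genes tested to fall, from 32.9 to 15.1 RPKM in Cont, 33.5 to 11.1 in BA and 23.3 to 9.86 in BF. POLR1B, a subunit of RNA polymerase I, was called by limma in addition, at 17.6, 16.1 and 15.3 RPKM at 4 h and 10.1, 6.35 and 7.08 RPKM at 12 h in Cont, BA and BF. The list had a median of -0.60, with -0.31 in Cont, -0.86 in BA and -0.69 in BF. Of the 35 genes 26 (74.3%) were lower in all 3 pairs, against 23.9% of all genes tested. NPM1, nucleophosmin, was higher at 12 h in Cont and lower in BA and BF, and NOLA2 was higher in all 3.

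Genes of the endoplasmic reticulum were found on the rising side. CRELD2, a protein of the endoplasmic reticulum induced when unfolded proteins accumulate, went from 32.7 to 225 RPKM in Cont, 64.7 to 163 in BA and 79.6 to 207 in BF. It had been at 53.1, 76.8 and 41.8 RPKM at 0 h and was at 85.2, 63.4 and 60.05 RPKM at 24 h in Cont, BA and BF, and so the 12 h column was the highest in all groups. It was the only 1 of 15 ER stress genes tested to rise (6.67%), against 0.497% of all genes tested. Limma did not call CRELD2 (adjusted p = 0.0529), and the only gene of the list that it called was PDIA4, a protein disulfide isomerase. The list median was 0.73, with 1.14 in Cont, 0.56 in BA and 0.50 in BF, and 12 of 15 were higher in all 3 pairs, against 31.1% of all genes tested. HSPA5, the chaperone BiP, was at 654, 764 and 983 RPKM at 4 h and 1295, 1079 and 1186 RPKM at 12 h in Cont, BA and BF, with an adjusted p of 0.137 in limma. HYOU1, its nucleotide exchange factor, was at 52.9, 84.8 and 105 RPKM and 212, 169 and 202 RPKM. XBP1, a transcription factor of this response, was lower at 12 h in all 3 pairs, at 375, 474 and 162 RPKM at 4 h and 209, 187 and 152 RPKM at 12 h. KDELR3, a receptor that returns chaperones to the endoplasmic reticulum, was picked out after its values were seen and rose from 1.25 to 4.00 RPKM in Cont, 1.04 to 5.32 in BA and 2.44 to 7.55 in BF. CKAP4, a membrane protein that shapes the sheets of the reticulum, rose from 1.37 to 8.82 RPKM in Cont, 1.83 to 10.2 in BA and 2.94 to 8.99 in BF.

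The ER stress response element, whose letters are CCAAT and CCACG with 9 bases of any kind between them, was present on either strand in the promoter of 1 of the 34 genes that rose for which a promoter was found (2.94%), in 0 of 50 for the genes that fell, and in 13 of 6540 (0.199%). That promoter was CRELD2 (chr7:121789134-121789433, plus strand, GRCr8), and it is shown 5′ to 3′ with the element in capitals, which lies on the opposite strand from 145 to 127 bases before the start of the gene.
CRELD2: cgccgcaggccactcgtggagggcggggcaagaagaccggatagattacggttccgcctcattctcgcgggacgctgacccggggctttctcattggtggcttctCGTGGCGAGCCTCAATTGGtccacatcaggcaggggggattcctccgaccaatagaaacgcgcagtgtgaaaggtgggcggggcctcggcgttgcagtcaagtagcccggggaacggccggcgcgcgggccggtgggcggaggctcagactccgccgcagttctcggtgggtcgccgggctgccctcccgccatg

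Genes of the cytoskeleton and of biosynthesis were also among those that rose. TUBB5, a beta tubulin, went from 26.2 to 94.04 RPKM in Cont, 19.7 to 63.4 in BA and 35.8 to 90.1 in BF, and at 24 h it was at 369, 214 and 283 RPKM in Cont, BA and BF. TUBA4A, an alpha tubulin, went from 21.2 to 81.04 RPKM in Cont, 23.1 to 61.7 in BA and 38.8 to 97.5 in BF. Both have close copies in the genome, as has RPL22L1 below, and how reads shared between copies were counted is not given in the sources used here. TUBB5 and TUBA4A were the only 2 of 27 tested genes of the actin and tubulin cytoskeleton to rise (7.41%), against 0.497% of all genes tested, and 0 fell. In all 3 pairs 14 (51.9%) were higher at 12 h and 5 (18.5%) lower, against 31.1% and 23.9% of all genes tested. The list median was 0.23. KIF12, a kinesin, went from 0.33 to 3.42 RPKM in Cont, 0.66 to 6.24 in BA and 1.66 to 6.52 in BF. CDK2AP2, a partner of the kinase CDK2, was picked out after its values were seen and went from 40.4 to 195 RPKM in Cont, 51.5 to 162 in BA and 66.9 to 153 in BF. PHGDH opens the synthesis of serine, the amino acid that SDS breaks down, and rose from 1.00 to 4.43 RPKM in Cont, 2.76 to 13.6 in BA and 0.99 to 4.53 in BF. It was the only 1 of 16 ATF4 targets tested to rise. At 24 h PHGDH had gone on to 10.04, 21.7 and 6.92 RPKM, while SDS was at 69.98, 41.3 and 79.8 RPKM, in Cont, BA and BF.

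Of 34 tested genes of origin licensing and the replication fork, 0 met the 2-fold rule in all pairs. In all 3 pairs 24 (70.6%) were higher at 12 h and 0 were lower, against 31.1% and 23.9% of all genes tested. The list median was 0.53, with 0.31 in Cont, 0.64 in BA and 0.60 in BF. POLD2, a subunit of DNA polymerase delta, was the only 1 called by limma, and it was just outside the rule, at 2.03, 0.99 and 1.48 RPKM at 4 h and 5.41, 2.92 and 4.70 RPKM at 12 h in Cont, BA and BF. MCM6, part of the helicase that opens DNA for replication, was at 0.91, 0.57 and 0.61 RPKM at 4 h and 2.47, 1.96 and 5.41 RPKM at 12 h. Many of these genes were at a few RPKM, where the 1 RPKM added makes the ratio smaller, and the list median was 0.81 with 0.1 RPKM added and 0.35 with 3 RPKM. PCNA was at 29.8, 32.9 and 27.5 RPKM at 4 h and 26.8, 21.3 and 30.4 RPKM at 12 h in Cont, BA and BF, with an adjusted p of 0.49 in limma. CCND1, cyclin D1, was at 9.33, 0.83 and 3.58 RPKM at 4 h and 11.2, 10.7 and 6.71 RPKM at 12 h. Its 12 h values were closer together than its 4 h values, and the BA pair alone passed 2-fold. Of 15 G1 cyclins, kinases and inhibitors 1 fell (CDKN1A) and 0 rose, and of 21 mitosis genes 0 fell and 0 rose, with list medians of 0.09 and 0.11. By pair the mitosis median was -0.09 in Cont, 0 in BA and 0.56 in BF. In all 3 pairs 6 mitosis genes (28.6%) were higher and 0 lower, against 31.1% and 23.9% of all genes tested.

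Receptors and kinases were found among the genes that rose, several of them from a low at 4 h. AVPR1A, the vasopressin receptor of hepatocytes, went from 4.48 to 15.1 RPKM in Cont, 5.64 to 22.7 in BA and 11.5 to 46.4 in BF, and had been at 34.8, 54.00 and 54.6 RPKM at 0 h. HFE2, hemojuvelin, the BMP coreceptor that drives hepcidin expression, went from 6.97 to 22.8 RPKM in Cont, 4.25 to 31.2 in BA and 14.4 to 45.6 in BF, with 42.6, 59.02 and 52.95 RPKM at 0 h. SGK2, a serum- and glucocorticoid-regulated kinase, had the largest change in its weakest pair among the genes that rose, from 0.98 to 5.61 RPKM in Cont, 0.21 to 10.4 in BA and 2.56 to 12.1 in BF. TNFAIP2, a cytokine-induced gene, rose from 2.18 to 10.2 RPKM in Cont, 1.01 to 13.8 in BA and 5.11 to 17.6 in BF. SRMS, a kinase of the Src group, differed from these: it was at 1.51, 1.57 and 0.91 RPKM at 0 h, rose from 0.28 to 5.42 RPKM in Cont, 0.83 to 5.90 in BA and 0.97 to 5.32 in BF, and was back at 0.90, 1.59 and 0.98 RPKM at 24 h in Cont, BA and BF. NOL3, an inhibitor of cell death, rose from 0.29 to 2.83 RPKM in Cont, 0.53 to 4.51 in BA and 0.57 to 2.93 in BF.

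A few genes of lipid metabolism rose. Of 24 genes of cholesterol synthesis and SREBP2 targets 1 rose and STARD4 was the only 1 to fall, and the list median was -0.09. GPAM, which opens the synthesis of glycerolipids, rose from 8.34 to 22.6 RPKM in Cont, 13.4 to 28.4 in BA and 8.50 to 45.9 in BF. MID1IP1, a protein that promotes the activity of acetyl-CoA carboxylase, rose from 2.86 to 13.3 RPKM in Cont, 4.06 to 12.1 in BA and 6.15 to 21.00 in BF. PAPSS1 makes the sulfate donor for sulfation, and its rise from 1.54 to 5.95 RPKM in Cont, 1.62 to 6.35 in BA and 1.70 to 6.28 in BF had a mean log2 ratio of 1.46 ± 0.03 (SD, n = 3 pairs). AQP8, a water channel of hepatocytes and bile canaliculi, was picked out after its values were seen and rose from 33.1 to 76.2 RPKM in Cont, 35.1 to 110.4 in BA and 36.2 to 156 in BF.

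LCN2, an acute phase protein that binds siderophores, had the highest RPKM among the genes that rose, from 134 to 2220.1 RPKM in Cont, 1659.8 to 3847 in BA and 1028 to 4228.5 in BF. The groups were unequal before PH, at 3.03 RPKM in Cont, 1388 in BA and 808 in BF, and its rise was largest in Cont. It was the only 1 of 23 positive acute phase proteins tested to rise. ORM1, which encodes orosomucoid and was not a member, was at 4907, 16559 and 18532 RPKM at 4 h and 23834, 31322.5 and 33818 RPKM at 12 h in Cont, BA and BF. HAMP, hepcidin, was at 4782, 3737 and 2495 RPKM at 4 h and 4535, 1139 and 771 RPKM at 12 h, with the groups in that order. ALB was at 81796, 303637 and 78927 RPKM at 4 h in Cont, BA and BF and at 45303, 41049 and 41756 RPKM at 12 h, with an adjusted p of 0.107 in limma.

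ZG16 and FABP6 were listed at 0 in all 4 h columns, and no fold change is given. ZG16, a lectin known from pancreatic zymogen granules and gut, was at 8.98, 1.53 and 2.81 RPKM at 12 h in Cont, BA and BF. It was highest in Cont at 12 h, where the acinar cell markers summed to 10.1 RPKM, and lower in BF at 12 h, where they summed to 165 RPKM. FABP6, the bile acid binding protein of ileum, was picked out after its values were seen and was at 1.71, 2.36 and 1.12 RPKM at 12 h.

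The remaining members lay outside the rule for naming genes and are given for completeness, with mean log2 ratios and the SD over n = 3 pairs. Secreted and membrane proteins among those that fell were RNASE4, a ribonuclease made by the liver, APOF, an apolipoprotein, ALPL, an alkaline phosphatase, THBD, the anticoagulant receptor thrombomodulin, and ENTPD8, which hydrolyses nucleotides outside the cell. RNASE4 went from 951 to 78.2 RPKM in Cont, 473 to 67.7 in BA and 548 to 166 in BF, and was lower in every group at each step from 0 h. THBD had a mean log2 ratio of -1.52 ± 0.42. Enzymes of small molecules were CYP26A1, which clears retinoic acid, ADH6, an alcohol dehydrogenase, HSD17B2, which oxidises sex steroids, TYMP, thymidine phosphorylase, DDC, aromatic amino acid decarboxylase, CAR5A, the mitochondrial carbonic anhydrase, and ETHE1, a sulfur dioxygenase of mitochondria. CYP26A1 fell by nearly equal amounts in all pairs (-1.25 ± 0.05), while HSD17B2 was the most uneven of the 112 genes (-2.80 ± 2.22), from 314 to 6.83 RPKM in Cont, 17.97 to 4.14 in BA and 45.03 to 19.2 in BF. SLC25A29, a mitochondrial carrier of basic amino acids, and PPIF, cyclophilin D, belonged to mitochondria as well. Signalling proteins and transcription factors that fell were ADCY1, an adenylate cyclase, GEM, a small GTP-binding protein, TIFA, an adaptor of NF-kappa B signalling, PPTC7, a phosphatase, AZIN1, which sustains polyamine synthesis, MOBKL3, NDRG2, FOXQ1, MSX1 and HIVEP1. NREP, INSC, RGD1307603 and RGD1560242 also fell.

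Among the remaining genes that rose, RTP3, a chaperone of chemosensory receptors, had a large but uneven change (2.36 ± 1.10), from 2.56 to 16.8 RPKM in Cont, 1.33 to 24.8 in BA and 11.7 to 29.7 in BF. CGREF1, a secreted calcium-binding protein, went from 2.45 to 13.2 RPKM in Cont, 2.51 to 20.7 in BA and 12.5 to 31.3 in BF, and RPL22L1, a paralog of a ribosomal protein, from 15.1 to 46.8 RPKM in Cont, 18.5 to 43.7 in BA and 17.4 to 36.7 in BF. BID, which links death receptors to mitochondria, rose by a similar amount in all pairs (1.15 ± 0.07), and BCAT2, a branched chain aminotransferase, went from 1.38 to 4.11 RPKM in Cont, 0.71 to 3.36 in BA and 1.25 to 3.91 in BF, against the direction of the breakdown enzymes that fell. TCIRG1, a proton pump subunit, FAM20C, a kinase of secreted proteins, CAV2, caveolin 2, IKBKE, an innate immune kinase, DNAJC12, a cochaperone, PPP1R14A, a phosphatase inhibitor, HTATIP2, KLF12, ZFP385B and RGD1311940 had mean log2 ratios between 1.22 and 1.68.

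The members were next placed in the time course of the study. The 4 h and 12 h columns enter both this course and the choice of the genes, so the course describes the genes and tests nothing. Relative to 0 h, the median of the 70 genes that fell stood at 4 h at 1.43 in Cont, 1.72 in BA and 1.07 in BF on the log2 scale, and at 12 h at -0.34, -0.44 and -0.71. The 42 genes that rose had medians at 4 h of -1.02, -1.41 and -0.95, and at 12 h of 0.26, -0.03 and 0.54. Over all genes tested the 4 h medians were -0.19, -0.32 and -0.07. The genes that fell were of several kinds, as the quartiles at 4 h reached from -0.16 to 2.45 in Cont, 0.08 to 3.04 in BA and -0.42 to 1.81 in BF. In all 3 groups 46 of the 70 (65.7%) were highest at 4 h among the 4 times, GOT1, COQ10B, CREM, GADD45B and NAMPT among them, and 16 (22.9%) were lower at 4 h than at 0 h and lower still at 12 h, as were FMO1, FADS2, SERPINA6 and SLC10A1. Of the 42 that rose 31 (73.8%) were lowest at 4 h in all 3 groups, and 9 (21.4%) were highest at 12 h, CRELD2, LCN2 and SRMS among them. Over all genes tested 6.8% were highest and 19.9% lowest at 4 h, 5.26% were lower at each of these steps and 2.14% were highest at 12 h, and the rule itself fixes much of these differences. NAMPT, an enzyme of NAD salvage picked out after its values were seen, was at 84.1, 69.9 and 43.3 RPKM at 0 h in Cont, BA and BF and went from 489 to 158 RPKM in Cont, 673 to 114 in BA and 346 to 38.4 in BF.

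**Figure D3:**
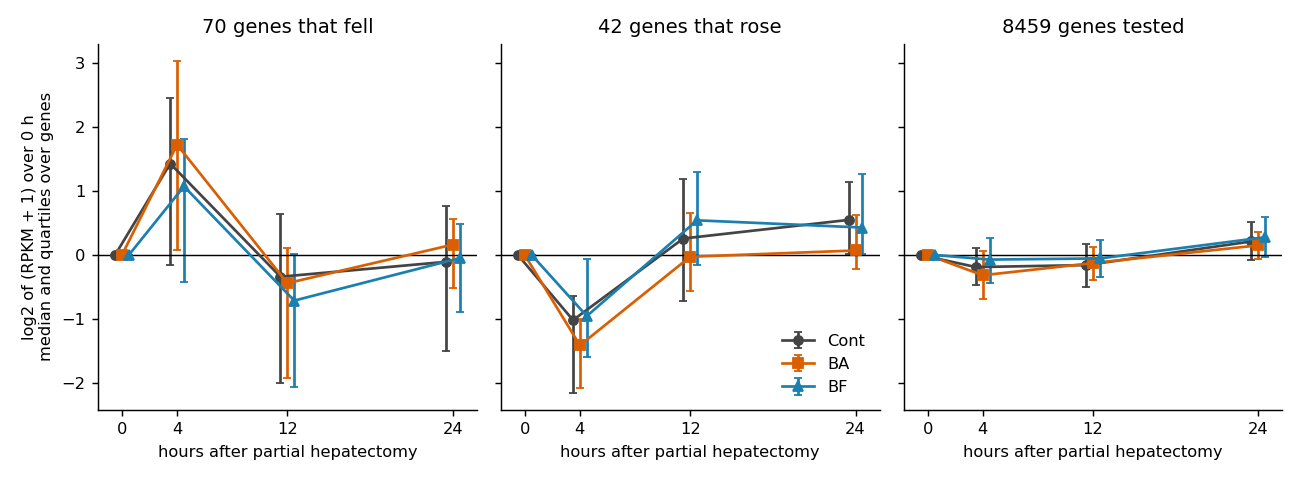
Median log2 ratio of RPKM + 1 over the 0 h column of the same group (y axis) against hours after PH, for the 70 genes that fell, the 42 that rose and all 8459 genes tested. Lines are groups (Cont black, BA orange, BF blue) and bars span the quartiles over genes. The median of the genes that fell stands above 0 h at 4 h and below it at 12 h in all 3 groups. That of the genes that rose stands below 0 h at 4 h. Single genes differ: at 12 h 30, 22 and 18 of the 70 were still above 0 h in Cont, BA and BF.

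The 24 h and 0 h columns took no part in the choice of the genes, apart from the filter on the mean, and were compared with limma in the same way. Of the 70 genes that fell between 4 h and 12 h, 14 were called higher at 24 h than at 0 h (20%) and 18 lower (25.7%). Over all genes tested 27.3% were called higher and 6.17% lower. The share called lower was thus above that of all genes, and after the columns were rescaled to the same median, an alternative added after the data were seen, it was 31.4% against 15.5%, with 4 called higher (5.71%) against 9.36%. At least 2-fold in all 3 pairs, 12 of the 70 were lower (17.1%) and 1 higher, against 0.662% and 2.54% of all genes. The gene that was higher was CDKN1A, at 9.24, 7.98 and 7.41 RPKM at 0 h and 86.8, 78.9 and 30.4 RPKM at 24 h in Cont, BA and BF. SERPINA6 was lower at 24 h by a mean log2 ratio of -2.16 (adjusted p = 0.0044 in limma), SLC10A1 by -1.41 (adjusted p = 0.0071) and FMO1 by -1.29 (adjusted p = 0.0071). STAC3, picked out after its values were seen, had the lowest ratio of the 112 genes, at 173, 102 and 44.97 RPKM at 0 h and 1.06, 0.12 and 0.62 RPKM at 24 h.

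Of the 42 genes that rose, 9 were called higher at 24 h than at 0 h (21.4%) and 2 lower (4.76%), both below the shares of all genes. After rescaling to the same median 9 were called higher (21.4%) against 9.36% of all genes, and 5 lower (11.9%) against 15.5%, so the share called higher lay below that of all genes as deposited and above it when rescaled. At least 2-fold in all 3 pairs, 7 were higher (16.7%) and 0 lower, against 2.54% and 0.662% of all genes. TUBB5 was higher at 24 h by a mean log2 ratio of 2.78 (adjusted p = 0.018 in limma), PHGDH by 1.87 (adjusted p = 0.017) and CKAP4 by 1.64 (adjusted p = 0.0085). AVPR1A had a mean log2 ratio of 0.01 and HFE2 of 0.26, and neither passed the test. LIMS2 was among the 2 called lower at 24 h.

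Of the 70 genes that fell 23 belonged to any of the 34 lists, and of the 42 that rose 7 did. The share of all genes tested that belonged to any list was not counted. The lists were also chosen with earlier results of these data known, so no conclusion is drawn from these counts or their difference. Lists with 0 members of either kind included those of the circadian clock, the proteasome, oxidative phosphorylation, NRF2 targets, heat shock chaperones, interferon response, tRNA synthetases, gluconeogenesis and glycolysis, and complement and coagulation. The circadian clock list had a median of -0.01 over 18 genes. Of these 5 (27.8%), BHLHE40, NFIL3 and NR1D1 among them, were lower at 12 h in all 3 pairs, against 23.9% of all genes tested. Another 3 (16.7%) were higher in all 3 pairs, against 31.1%. The proteasome list had a median of 0.17 over 34 genes. Of these 16 (47.1%) were higher in all 3 pairs, against 31.1% of all genes tested, and 6 (17.6%) were lower, against 23.9%. The lists of IL-6 and STAT3 signalling and of MAP kinase phosphatases had medians of -0.35 and -0.43. By pair they were -0.24 and -0.26 in Cont, -0.60 and -0.58 in BA and -0.23 and -0.10 in BF. Without the BA pair the IL-6 and STAT3 median was -0.10. Those of hepatocyte transcription factors, of nucleotide and polyamine synthesis and of the HGF and EGF receptor systems, with 0 members each, had medians of 0.12, 0.09 and -0.36. The HGF and EGF median was -0.53 in Cont, -0.29 in BA and 0.04 in BF, and -0.01 over the pairs without the filter. Of 10 negative acute phase proteins SERPINA6 fell, with a list median of -0.33, and of 14 chemokines and cytokines IL1RN fell, with a list median of 0.07, while limma called CCL2, a monocyte chemokine, higher.

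**Figure D4:**
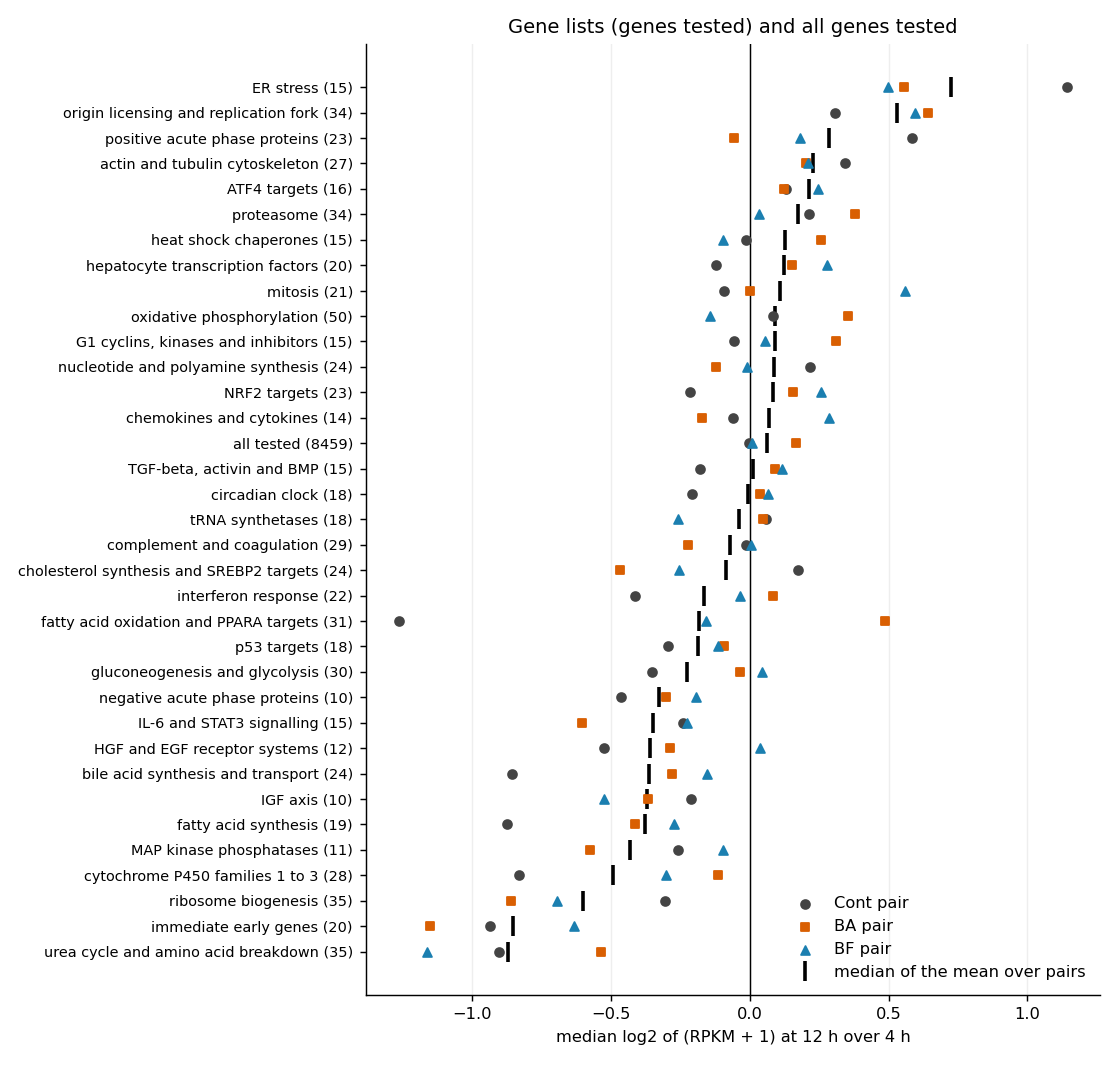
Median log2 ratio of RPKM + 1 at 12 h over 4 h (x axis) of 34 gene lists and of all genes tested, with the number of genes tested in parentheses. Circles, squares and triangles are the medians in the Cont, BA and BF pairs, and black bars the median of the genes' mean over the pairs. The urea cycle and amino acid breakdown list is lowest at -0.87 and the ER stress list highest at 0.73.

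None of the markers of 9 cell types was among the 112 genes. Those genes were 1.32% of all genes tested, and only 0 to 6 markers per list passed the filter, so this count says little. The macrophage list, of which 6 of 6 genes were found and 0 were at 0 in any column, summed to between 109 and 215 RPKM at 4 h and between 89.35 and 102 RPKM at 12 h. The endothelial list, with 3 of 6 found, summed to between 47.3 and 63.3 RPKM at 4 h and 38.65 and 40.8 RPKM at 12 h, and the list for stellate cells and fibroblasts, with 6 of 7 found, to between 47.75 and 58.2 and between 33.5 and 44.6. These levels were lower at 12 h beside the falls described above, and their part in them was not tested. Neutrophil markers, with 6 of 6 found, summed to between 40.8 and 57.4 RPKM at 4 h and 51.0 and 65.5 RPKM at 12 h. Erythroid markers, with 3 of 5 found, summed to between 167 and 203 RPKM at 4 h and 144 and 164 RPKM at 12 h. Cholangiocyte markers, with 4 of 6 found, went from 7.91 to 14.45 RPKM in Cont, 12.45 to 19.93 in BA and 14.02 to 10.81 in BF.

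At the edge of the rule the members just inside on the falling side were EHHADH, GLS2 and TMEM86A, with smallest log2 changes of 1.00, 1.04 and 1.04, and those just outside were ASL, AKAP2 and TINAGL1, with 0.998, 0.995 and 0.987. On the rising side SLC38A9, GPM6A and TRIM47 were just inside, at 1.02 to 1.03, and AK1 and POLD2 just outside, both at 0.98. The limma fit called 43 genes higher and 37 lower that were not among the 112, with a median mean change of 1.05 in size in either direction. Conversely 13 genes that fell and 6 that rose were not called by it, among them BTG2, IL1RN, LCN2, CRELD2 and GPAM.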

How the data were processed

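Whole-liver RNA had been extracted with Trizol and made into Illumina TruSeq libraries. The authors deposited RPKM values with 2 decimals, 1 column per group and time, each the mean of 2 runs. The submitters' processing notes name Bowtie 0.12.2, CASAVA and the builds mm8 and rn4 without their roles, and the gene annotation is not given in the sources used here. Read depth is unknown, and no count model was used.

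From the deposited table, genes whose 12 columns averaged 1 RPKM or more were kept, 8459 of 14692 listed. The 12 h and 4 h columns were compared within each group as log2(RPKM + 1), a scale that understates the change of low genes, and a gene fell or rose when it moved at least 2-fold the same way in all 3 pairs. Limma 3.58.1 (R 4.3.3), with the group as a block, moderated variance with a mean trend and Benjamini-Hochberg adjustment, gave a second call at an adjusted p of 0.05, also for 24 h against 0 h. Its residual spread is that between differently treated groups, not between rats. With 3 pairs the smallest two-sided p of an exact sign permutation is 0.25, so no such test was made. Named genes were the 12 with the largest change in their weakest pair on each side, members within the 34 lists, and MYC, FOS, JUN, CCND1, PCNA, CYP7A1, ALB and GAPDH. GAPDH was not among the 8459 genes kept, so no value is given for it. Genes outside this rule are marked as picked out after their values were seen, or stand as list members. A few genes are counted but not reported here by name. The members and lists were chosen with earlier results of these data known, and the lists' counts are descriptions. The scripts were tested on simulated data. Promoters were RefSeq sequences matched by symbol, and both strands were searched. Alternatives were other added constants, folds and filters, rescaled columns, each pair left out, no block, and all 12 columns. Python 3.11.15, numpy 2.4.6, pandas 2.3.3 and matplotlib 3.10.9 were used.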

Additional observations from a re-analysis of the deposited data

Results flagged for a closer look

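Between 4 h and 12 h, 47 genes moved at least 2-fold up in 1 pair and at least 2-fold down in another, and 5 with wide differences between groups are given here with 1 gene list. These differences were not tested, since each group has 1 column per time.

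RGS16, a regulator of G protein signalling, was at 33.4 RPKM at 4 h and 1.64 at 12 h in Cont, 2.33 and 1.58 in BA and 16.4 and 61.5 in BF, a difference between the log2 ratios of BF and Cont of 5.55. FGF21, a fasting hormone of the liver, was at 5.64 and 1.47 RPKM in Cont, 2.07 and 37.8 in BA and 4.85 and 18.3 in BF, and BA exceeded Cont by 5.09. PROKR2, a prokineticin receptor, was at 0.01 and 4.28 RPKM in Cont, 6.62 and 0.45 in BA and 5.03 and 0.97 in BF, and Cont exceeded BA by 4.78. AKR1C21, a hydroxysteroid dehydrogenase, was at 28.1 and 76.6 RPKM in Cont, 22.0 and 180 in BA and 109 and 32.8 in BF, and BA exceeded BF by 4.67. SLC2A5, a fructose carrier, was at 10.8 and 0.62 RPKM in Cont, 0.73 and 3.65 in BA and 1.03 and 3.91 in BF, and BA exceeded Cont by 4.30. The median of 31 genes of fatty acid oxidation and PPARA targets was -1.26 in Cont and 0.49 in BA, a difference of 1.75.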

How the results depend on the processing

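The gene counts depended on the constants chosen. With 0.1 RPKM added 104 genes rose and 96 fell, and with 3 RPKM 18 rose and 53 fell. At 1.5-fold 209 rose and 227 fell, and at 3-fold 3 and 23. Without the filter the same 42 and 70 genes moved, and with columns rescaled 44 rose and 72 fell, 40 and 66 of them shared. Leaving out a pair gave 58 to 110 genes that rose and 100 to 188 that fell, more because fewer pairs had to pass: without Cont 110 and 130, without BF 99 and 188.

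The limma calls moved more. Rescaled columns gave 199 higher and 156 lower, and no filter gave 0 and 0, with 1593 and 1174 at an unadjusted p under 0.05, and the cause was not tested. All 12 columns in 1 fit, chosen after the data were seen, gave 1177 and 1014. Without the group as a block the fit gave 187 higher and 148 lower, 65 and 71 shared with the blocked fit. Leaving out a pair gave 0 to 187 higher and 1 to 180 lower. Without BA it gave 0 and 1 (788 and 825 unadjusted) and without BF 0 and 1 (1083 and 817), while without Cont, with as many samples, it gave 187 and 180, and the cause was not tested.

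At 24 h against 0 h, rescaling, also chosen after the data were seen, lowered the count of falling genes called higher from 14 to 4 and raised that of rising genes called lower from 2 to 5. Reversed mean log2 ratios were found for genes whose groups moved in opposite directions: leaving out a pair gave -2.04 to 0.74 for RGS16, -2.004 to 0.39 for PROKR2, -0.14 to 2.20 for AKR1C21 and -0.80 to 1.35 for SLC2A5, which was 0.026 with 0.1 RPKM added. The sign turned without the Cont pair for RGS16 and SLC2A5 and without the BA pair for PROKR2 and AKR1C21. Of 396 values of named genes under the alternatives 356 kept direction and side, 18 became weaker and 17 stronger, and 226 of 238 list medians moved by less than the spread of the pairs. Read depth is unknown, so the counting error of genes at a few RPKM could not be given.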
